A study of Mus musculus with 8 samples.

Results

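The comparison set palatal shelves of mouse embryos without Pax9 against those of wild-type embryos at embryonic day 13.5. It used 6 of the 8 RNA-seq libraries in the deposited table, 4 labelled Pax9-/- and 2 labelled Pax9+/+. The other 2 libraries, labelled Pax9+/-, took no part in it and are used only as separate embryos. Of 19083 genes in the table, the 12814 autosomal genes with an FPKM of 1 or more in at least 2 of the 6 libraries were tested, where FPKM is the fragment count scaled by exon length and by library total. All embryos carry the strain label C57BL/6 and none was treated according to the labels. The labels do not say which exons the Pax9 mutation removes, whether embryos shared a litter, or whether shelves of more than 1 embryo were pooled. Replicate numbers follow the order of the samples, so p-values reflect the variation among these 6 embryos alone. Null 1 and null 2, whose columns neighbour the wild types in the table, are called null A, and null 3 and null 4, whose columns neighbour the heterozygotes, null B.

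Pax9 is a paired-box transcription factor of the neural crest-derived mesenchyme of the shelves and of the pharyngeal endoderm. Mice without it have a cleft secondary palate and lack teeth, and their shelves are misshapen and fail to elevate normally. It is known to act in the mesenchyme upstream of Bmp4, Msx1 and Osr2 in palate and tooth development.

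The 6 libraries held about 37142000 to 51309600 fragments assigned to genes, as read from the steps between low FPKM values. At the median exon length of the tested genes, 4298 bases, 1 FPKM stood for 160 fragments in null 4 and 221 in null 3, which sets the counting precision of genes near that level. Of 18 mesenchyme markers 17 were tested, and their summed FPKM was 1769 to 1956 in null and 1685 to 1876 in wild type. Markers of brain and of pituitary, thyroid and salivary gland had 1 tested gene each. Null 4 expressed Xist at 178.6 FPKM and the Y-linked gene Ddx3y at 0.0058, while the other 5 libraries had Ddx3y at 15.01 to 19.8 and Xist at 0.0327 or less, so null 4 was the only library of the 6 with the female pattern. The comparison covered autosomal genes alone.

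Pax9 RNA was lower in each null embryo than in either wild type. Its FPKM was 8.49, 7.19, 9.81 and 10.3 in nulls 1 to 4, against 35.8 and 27.2 in the wild types. The groups did not overlap, and the null mean of 8.95 ± 1.40 (SD, n = 4) reached 28.4% of that of the wild types, 31.5 ± 6.03 (SD, n = 2). The log2 change came to −1.76 (SE, its standard error, 0.16, limma, adjusted p = 0.00861). It was −1.93 in null A and −1.59 in null B, a difference with an unadjusted p of 0.04 (limma) that did not pass adjustment. Without wild type 1 the change was −1.565 and missed the threshold (adjusted p = 0.0857). Pax9 (ENSMUSG00000001497, mm10 chromosome 12, 56691767 to 56712822, plus strand) was measured over all its exons, so these reads do not tell whether intact transcript remained.

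In all, 26 of the 12814 genes changed, which is 0.203% (limma with Benjamini-Hochberg adjustment over all tested genes, adjusted p under 0.05). Of these 12 rose (0.0936%) and 14 fell (0.109%) in null, and the unadjusted p was under 0.05 for 1168 genes. The absolute log2 change of the 26 had a median of 1.19 and ran from 0.46 to 2.19. Over the whole set of tested genes the median absolute change was 0.10. The genes that fell included the transcription factors Tfap2b and Pax1, 3 genes of sulfation, the cyclase gene Adcy8 and the cartilage gene Matn4. Those that rose included the transcription factor Osr2, noncoding RNAs of both the Dlx1 and the Dlx6 locus, the pentraxin Nptx1 and the opioid precursor Penk. Null and wild-type values did not overlap in any of the 26, and the same held for 2683 tested genes or 20.9%, of which 973 (7.59%) were higher and 1710 (13.3%) lower in null. Without such overlap, leaving out a library or fitting a subset of these libraries cannot reverse the sign. Signs kept in such fits were thus fixed in advance and are no support. With only 2 wild types the count of called genes depended on single embryos. It was 3 without wild type 1, 10 without wild type 2, 11 without null 2 and 11 without null 3, but 23 without null 1 and 39 without null 4. Osr2, Nptx1 and Dlx1as were the 3 genes called in each of these 6 leave-outs, and all 26 kept their sign in the 20 alternatives run. Pax9 and Ccdc3 lost the call without wild type 1 alone, and Hs3st2, Hs3st6, Papss2 and Tfap2b without wild type 1 or wild type 2. Stk32b and Tmem30b lost it without wild type 1, null 2 or null 3, and the other 13 with an established symbol in 4 or 5 of the 6 leave-outs.

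**Figure D1:**
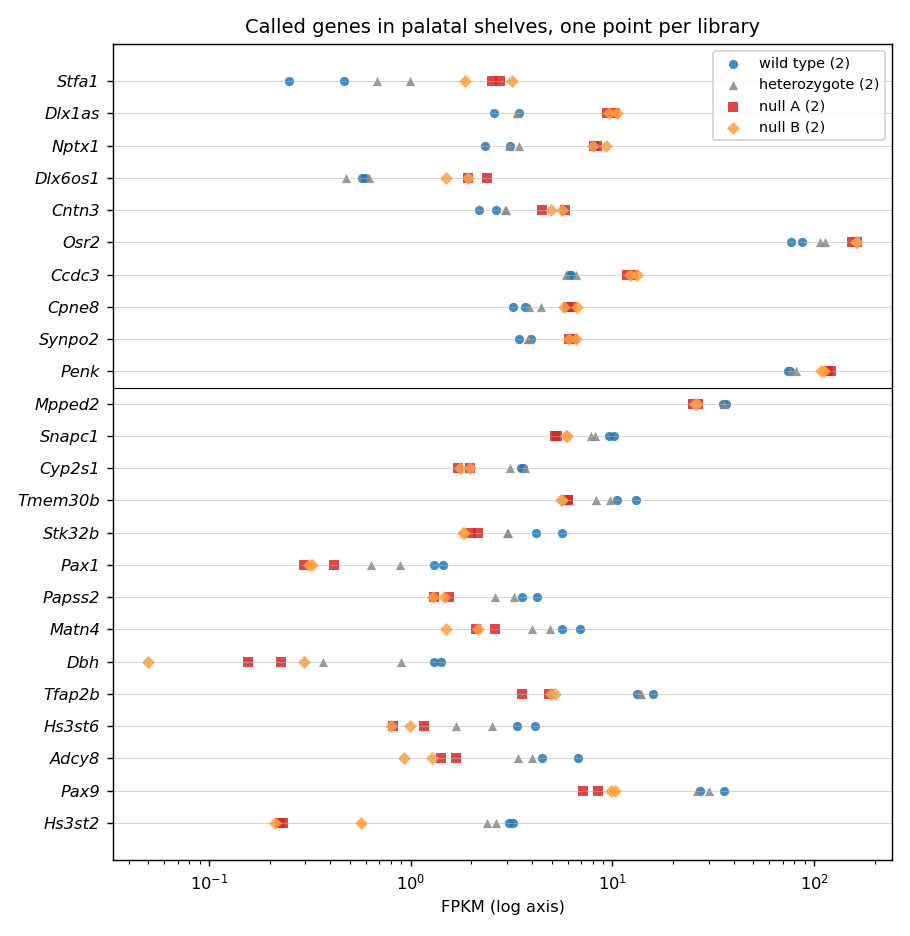
FPKM on a log axis for the 24 called genes with an established symbol, 1 point per library, with rises above the black line and falls below it. In every gene the 4 null points (null A red squares, null B orange diamonds) lie apart from the 2 wild-type points (blue circles), and the 2 heterozygotes (grey triangles) are shown for reference.

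Among transcription factors, Tfap2b fell with Pax9. Tfap2b encodes an AP-2 factor active in neural crest derivatives. Its FPKM was 3.57, 4.88, 4.99 and 5.19 in nulls 1 to 4 and 15.9 and 13.2 in the wild types. Every null value was far below both wild types, and the log2 change came to −1.55 (SE 0.15, limma, adjusted p = 0.0101). Its relative Tfap2a was at 3.96 ± 0.209 FPKM in null (SD, n = 4) and 5.67 in the mean of the wild types and did not pass (limma, adjusted p = 0.119). Pax1, the closest relative of Pax9 and active with it in the sclerotome and pharyngeal pouches, was a scarce transcript. It stood at 0.296, 0.417, 0.312 and 0.324 FPKM in the nulls and 1.31 and 1.44 in the wild types. Behind these were 65, 71, 72 and 54 fragments in the nulls and 271 and 247 in the wild types. The null values lay close together and well below both wild types, with a log2 change of −1.17 (SE 0.14, limma, adjusted p = 0.0291). The call was lost without any 1 of wild type 1, wild type 2, null 1, null 2 or null 3.

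Osr2 was the called transcription factor that rose. It encodes a zinc-finger protein of the palatal mesenchyme that is needed for shelf growth. Its FPKM was 153.7, 162.7, 161.2 and 163.3 in nulls 1 to 4 and 86.9 and 77.01 in the wild types. The null embryos were nearly equal to one another and 1.96 times the wild-type mean, a log2 change of 0.97 (SE 0.07, limma, adjusted p = 0.00387). Its highest adjusted p over the 6 leave-outs was 0.0386. Msx1, a homeobox factor of the anterior palate that BMP signals induce, just missed the threshold against the wild types alone. Its FPKM was 45.0, 31.8, 29.2 and 27.9 in null and 102 and 75.0 in wild type. The groups were apart, but both spread widely, and the log2 change was −1.40 (SE 0.20, limma, adjusted p = 0.0545). It was called with the GC trend removed (limma, adjusted p = 0.0327), and over the leave-outs its adjusted p ran from 0.0127 to 0.360. The nuclear receptor gene Nr2f2, at 28.5 ± 1.56 FPKM in null (SD, n = 4) and 20.6 ± 0.867 in wild type (SD, n = 2), also came short (limma, adjusted p = 0.0694). In the list of 62 tested palatal transcription factors 1 rose and 3 fell, Pax9 itself among the latter, and 31 members lay on either side of 0. Their median was −0.0047, beside −0.02 for all tested genes, of which 0.203% were called and 55.6% lay below 0.

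Genes of sulfation fell, among them the gene with the largest fall of all. Hs3st2 encodes a 3-O-sulfotransferase that adds a late sulfate to heparan sulfate, the sugar chain of proteoglycans that binds growth factors. Its FPKM was 0.225, 0.232, 0.567 and 0.213 in the nulls and 3.08 and 3.22 in the wild types. Null 3 stood above the other 3 nulls but far below the wild types. The null mean reached 9.83% of that in wild type, and the log2 change came to −2.19 (SE 0.19, limma, adjusted p = 0.00861). A second gene of the same enzyme family, Hs3st6, stood at 1.16, 0.822, 0.799 and 0.994 FPKM in the nulls against 4.13 and 3.35 in the wild types. The groups were widely separated, with a log2 change of −1.56 (SE 0.15, limma, adjusted p = 0.0101). Papss2, which makes the sulfate donor used by sulfotransferases and is known for its role in cartilage, stood at 1.30, 1.55, 1.47 and 1.30 FPKM against 4.25 and 3.55. Its null values were nearly alike, and its log2 change came to −1.21 (SE 0.12, limma, adjusted p = 0.0119). Each of these 3 genes lost its call without either wild type, where only 1 wild type remained.

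Other genes of the same sulfotransferase family did not pass. Hs3st3b1 was at 5.84 ± 0.477 FPKM in null (SD, n = 4) and 6.47 ± 0.716 in wild type (SD, n = 2), and Hs3st1 was at 2.80 ± 0.766 and 2.68 ± 0.0483. Hs3st3a1 was at 2.06 ± 0.118 in null and 2.76 ± 0.182 in wild type. The adjusted p of these 3 genes was 0.404 or more (limma). Of 32 tested genes for heparan and chondroitin sulfate synthesis and sulfation, 3 fell, 0 rose and 29 did not pass. Of all tested genes 0.109% were called lower and 0.0936% higher. At an unadjusted p under 0.05 there were 9 lower and 0 higher, where 9.12% of all tested genes had such a p. Beside the called ones these included the carbohydrate sulfotransferase genes Chst2, at 14.2 FPKM in null and 20.7 in wild type, and Chst1, at 4.61 and 5.93. The list median was −0.11.

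Falls of other kinds covered signalling, matrix and metabolism. Adcy8 encodes an adenylyl cyclase stimulated by calcium and calmodulin. Its FPKM was 1.68, 1.41, 1.27 and 0.926 in the nulls and 6.74 and 4.46 in the wild types. All nulls were below both wild types and their mean was 23.6% of the wild-type mean, with a log2 change of −1.73 (SE 0.20, limma, adjusted p = 0.0254). Stk32b, a serine/threonine kinase gene that lies near Msx1 on chromosome 5 (37446825 to 37717171, against 37820485 to 37824583 for Msx1, mm10), was at 2.16, 2.00, 1.84 and 1.83 FPKM in the nulls and 5.66 and 4.17 in the wild types. The nulls were close together below both wild types, and the log2 change was −1.13 (SE 0.13, limma, adjusted p = 0.0254). Matn4, a matrilin that links fibres of cartilage matrix, was at 2.10, 2.63, 2.15 and 1.504 FPKM in the nulls against 6.95 and 5.66. Null 4 was lowest and all 4 were under the wild types, a log2 change of −1.40 (SE 0.18, limma, adjusted p = 0.0304).

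Dbh, which encodes the enzyme that turns dopamine into noradrenaline, was measured near the detection floor. It stood at 0.228, 0.157, 0.297 and 0.05 FPKM in the nulls, from 30, 16, 41 and 5 fragments, and at 1.31 and 1.41 in the wild types, from 162 and 145. Null 4 was the lowest, and the log2 change of −1.46 (SE 0.19, limma, adjusted p = 0.0321) understates the ratio at such levels. Hand2, a factor of both sympathetic neurons and jaw mesenchyme, was at 1.13, 0.389, 1.67 and 0.145 FPKM in the nulls and 4.003 and 4.51 in the wild types. All 4 nulls were below both wild types, with null 3 highest and null 4 lowest, but the gene did not pass (limma, adjusted p = 0.235). In these bulk samples fewer cells of a type and less RNA per cell cannot be told apart. Summed neuron markers were 67.2, 65.6, 193.7 and 59.0 FPKM in the nulls and 66.8 and 126 in the wild types, and their part in these values was not tested.

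Of the remaining falls, Tmem30b, a subunit of lipid flippases, went from 11.8 ± 1.82 FPKM in wild type (SD, n = 2) to 5.82 ± 0.256 in null (SD, n = 4). Cyp2s1, a cytochrome P450 of epithelia, went from 3.56 ± 0.0590 to 1.85 ± 0.138. Snapc1, a subunit of the complex that transcribes small nuclear RNAs, went from 9.89 ± 0.425 to 5.59 ± 0.391. The smallest called change belonged to Mpped2, a metallophosphodiesterase gene, at 26.6, 25.2, 26.2 and 25.8 FPKM in the nulls and 36.7 and 35.2 in the wild types. Its values hardly varied within groups, and the log2 change was −0.46 (SE 0.06, limma, adjusted p = 0.0316). The adjusted p of the other 3 lay between 0.0156 and 0.0316 (limma).

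The rises with the smallest adjusted p were those of Osr2, Nptx1, Dlx1as and Ccdc3, each at 0.00387 (limma). Nptx1 encodes a secreted pentraxin known from synapses. Its FPKM was 8.43, 8.09, 9.26 and 8.04 in the nulls and 3.10 and 2.34 in the wild types. The null embryos were 3.11 times the wild-type mean, a log2 change of 1.48 (SE 0.11). Ccdc3, a secreted protein gene, stood at 11.9, 12.7, 13.2 and 12.2 FPKM in the nulls and 6.20 and 6.13 in the wild types. Values within each group were close, at a log2 change of 0.96 (SE 0.07). In the annotation 69.1% of the exon bases of Ccdc3 overlap the predicted gene Gm26776 on the other strand, and the kit does not keep strand, so the 2 cannot be separated.

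Noncoding RNAs of Dlx loci rose. Dlx1as, transcribed antisense to the homeobox gene Dlx1, was at 10.3, 9.37, 9.58 and 10.5 FPKM in the nulls and 2.58 and 3.44 in the wild types. The nulls were 3.31 times the wild-type mean, a log2 change of 1.58 (SE 0.11, limma, adjusted p = 0.00387). Dlx1 shares 20.6% of the exon bases of Dlx1as on the other strand and was at 28.9 ± 1.27 FPKM in null (SD, n = 4) and 27.3 ± 2.07 in wild type (SD, n = 2), with no call (limma, adjusted p = 0.660). Dlx2, its neighbour, was at 26.4 ± 1.73 and 29.0 ± 1.14 and did not pass either. Dlx6os1, transcribed across the Dlx5 and Dlx6 locus, was at 2.40, 1.93, 1.92 and 1.498 FPKM in the nulls and 0.595 and 0.576 in the wild types. All 4 nulls were well above the wild types, with null 4 lowest, and the log2 change came to 1.15 (SE 0.16, limma, adjusted p = 0.0459). The homeobox genes there showed higher values without a call. Dlx6 was at 6.83, 6.50, 5.66 and 4.69 FPKM in null against 2.73 and 3.31 in wild type (limma, adjusted p = 0.107), and Dlx5 at 24.2, 18.6, 17.4 and 14.5 against 12.0 and 11.8 (limma, adjusted p = 0.378). In both, null 1 was the highest embryo and null 4 the lowest null.

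Penk, which encodes the precursor of the enkephalin peptides and is expressed in embryonic mesenchyme, was the most abundant riser after Osr2. Its FPKM was 122, 117, 112 and 109 in the nulls and 76.0 and 74.5 in the wild types. The log2 change came to 0.60 (SE 0.07, limma, adjusted p = 0.0178), and 14.3% of its exon bases overlap a gene on the other strand. Cntn3, a contactin of the immunoglobulin superfamily, rose from 2.42 ± 0.317 FPKM in wild type (SD, n = 2) to 5.21 ± 0.614 in null (SD, n = 4). Cpne8, a calcium-dependent membrane-binding copine, rose from 3.44 ± 0.322 to 6.21 ± 0.401. Synpo2, an actin-binding protein of muscle and fibroblast stress fibres, stood at 6.39, 6.11, 6.07 and 6.57 FPKM in the nulls and 3.46 and 3.96 in the wild types. Its 4 nulls spanned a narrow range above both wild types, with a log2 change of 0.69 (SE 0.09, limma, adjusted p = 0.0291). Stfa1, a stefin that inhibits cysteine proteases, rose as well and is taken up with the neutrophil genes. The 2 remaining risers, Gm22574 and Gm24899, are very short predicted loci and are only counted. By values alone, the next rises were Mir483, Magel2, Foxl1 and Rgs5, at 2.57, 1.82, 1.61 and 2.07 times the wild-type mean (limma, adjusted p of 0.0573 to 0.0586).

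Promoters of the called genes were searched for GTCACGC, the core of the paired-domain site bound by Pax proteins, and for TAATTA, a homeodomain core, on both strands of the 250 bases before the RefSeq transcript start (GRCm38.p6). Of the 26 called genes 18 had an entry, with 23 promoters. GTCACGC lay in 2 of the 23, those of Pax1 and Synpo2, against 1.78% of all 32851 mouse promoters in the table and 3.31% of 12080 promoters of tested genes. TAATTA lay in 3 of the 23, of Dlx6os1 and Synpo2, against 4.84% and 2.28%. Both promoters with the paired core are printed 5′ to 3′ on the strand of the gene, with that of Papss2 as a fallen gene with neither motif. Capitals mark the matches, where GCGTGAC is GTCACGC read from the other strand. Pax1 lies on the plus strand at chr2:147364744-147364993, Synpo2 on the minus strand at chr3:123236150-123236399 and Papss2 on the plus strand at chr19:32595465-32595714.
Pax1: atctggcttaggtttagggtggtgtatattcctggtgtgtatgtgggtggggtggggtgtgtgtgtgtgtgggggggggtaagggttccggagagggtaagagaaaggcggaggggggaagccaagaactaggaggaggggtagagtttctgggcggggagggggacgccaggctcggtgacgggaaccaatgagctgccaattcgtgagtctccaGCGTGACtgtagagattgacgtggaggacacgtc
Synpo2: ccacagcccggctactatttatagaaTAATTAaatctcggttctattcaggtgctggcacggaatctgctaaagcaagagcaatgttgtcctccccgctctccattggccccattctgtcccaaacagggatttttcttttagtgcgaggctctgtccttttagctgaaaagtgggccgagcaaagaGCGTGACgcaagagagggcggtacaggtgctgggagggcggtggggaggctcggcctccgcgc
Papss2: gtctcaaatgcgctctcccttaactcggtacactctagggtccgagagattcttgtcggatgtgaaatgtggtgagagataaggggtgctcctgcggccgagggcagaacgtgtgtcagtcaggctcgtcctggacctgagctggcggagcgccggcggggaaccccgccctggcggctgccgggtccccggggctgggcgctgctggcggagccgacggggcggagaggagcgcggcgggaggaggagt
A match in these windows is a description of letters and was not tested as a binding site. The gene with the match fell in Pax1 and rose in Synpo2.

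Gene lists for palate pathways and cell types put these genes in context. Of 42 lists, 41 had a tested member and 8 held a called gene. Beside the transcription factor and sulfation lists, these were the cartilage list, the adhesion list through Cntn3, the glutamate receptor and pentraxin list through Nptx1 and the cyclase list through Adcy8. The Hedgehog and mesenchyme lists each held a call through Osr2. In total 11 of the 26 called genes were in a list and 15 in none, where 753 of the 12814 tested genes were in a list. The lists were chosen with earlier results of these data known, so these counts are a description.

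Cartilage genes were mostly lower in point estimate, with 10 of 12 tested below 0, 1 call (Matn4) and 6 at an unadjusted p under 0.05. Of all tested genes 55.6% were below 0, 0.203% were called and 9.12% had such a p. The collagen gene Col2a1 was at 85.3 ± 3.75 FPKM in null (SD, n = 4) and 119 ± 8.09 in wild type (SD, n = 2) and missed the threshold (limma, adjusted p = 0.0573). Cnmd, which encodes chondromodulin, was at 0.901 and 2.09 FPKM. The list had a median of −0.31, beside −0.02 for all tested genes. The osteogenic list had 0 of 8 called and a median of −0.08.

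Signalling lists held few or no calls against the wild types, where 0.203% of all tested genes were called. Over all tested genes 55.6% were below 0 and the median was −0.02. In the BMP list 0 of 30 genes passed, with Bmp4, the ligand of the anterior mesenchyme, at 14.6, 11.9, 10.5 and 12.3 FPKM in the nulls and 20.6 in each wild type (limma, adjusted p = 0.0772). The 2 wild types were equal to the digits given, and all nulls were lower. Bmp2 was at 5.90, 6.38, 6.84 and 5.76 in the nulls and 4.49 and 4.53 in the wild types, with nulls higher (limma, adjusted p = 0.215). Of 12 tested Wnt antagonists 0 passed and 9 were below 0, at a median of −0.26. Wif1, a secreted binder of Wnt ligands, was at 1.34 ± 0.290 FPKM in null (SD, n = 4) and 3.13 ± 0.263 in wild type (SD, n = 2), and Dkk1, a blocker of Wnt co-receptors, was at 3.39 ± 0.664 and 1.58 ± 0.251. Neither passed, at adjusted p values of 0.0938 and 0.143 (limma). Of 17 Wnt/beta-catenin targets 0 passed and the median was −0.16. The Hedgehog list had 1 of 18 called, the FGF list 0 of 21 and the Notch list 0 of 17.

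**Figure D2:**
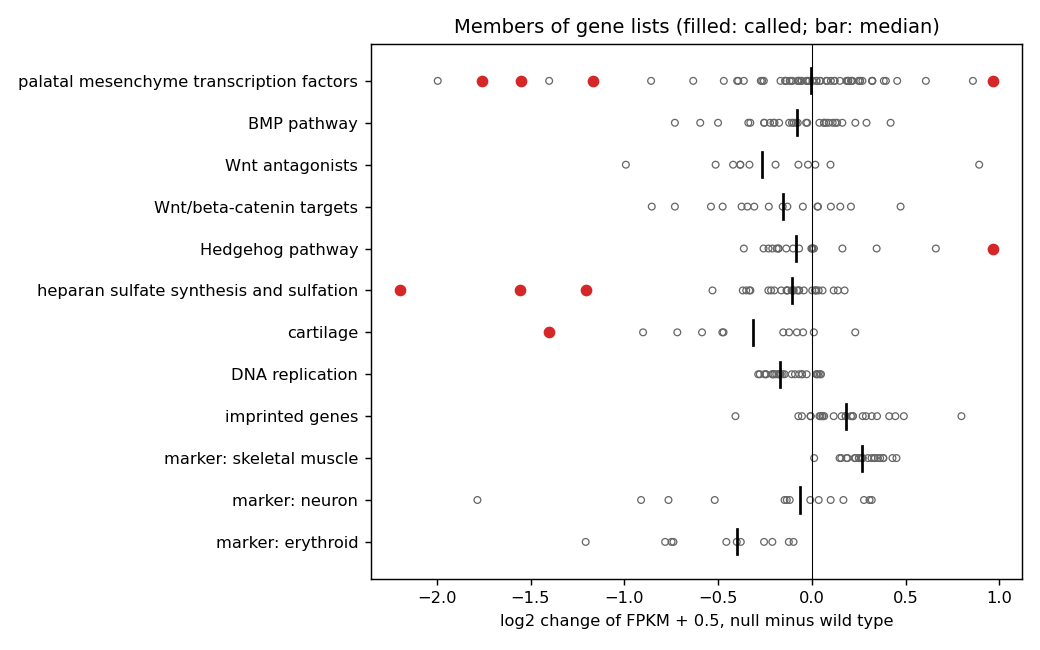
Log2 change of FPKM + 0.5, null minus wild type, for each tested member of 12 lists, with a bar at the list median and called genes filled in red. Heparan sulfate genes include 3 called falls, cartilage genes have a median of −0.31, and skeletal muscle markers all lie above 0 without a call.

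Lists of basic cell functions held no call, where 0.203% of all tested genes were called, and are given beside a share of 55.6% below 0 and a median of −0.02 for all tested genes. Of 29 DNA replication genes 24 were below 0 with a median of −0.17, and of 28 genes of the respiratory chain 27 were below 0 with a median of −0.12. Ribosomal protein genes had a median of −0.13 over 38 genes. With the GC trend removed, the median was −0.05 for ribosomal, −0.07 for respiratory chain and −0.14 for DNA replication genes. Mitotic genes had a median of −0.08 over 28 genes, with −0.20 in null A and 0.05 in null B, the latter −0.07 once the GC trend was removed. Of 11 erythroid genes all were below 0, with a median of −0.40, and their summed FPKM was 1619, 1713, 1524 and 1423 in the nulls and 1959 and 2467 in the wild types. In this marker list the null and wild-type sums did not overlap, but those of the heterozygotes, 1589 and 1640, lay within the null range. Its most abundant member was the embryonic globin gene Hbb-y. Summed markers of epithelium and periderm were 386, 366, 347 and 312 in the nulls and 451 and 336 in the wild types, with overlap.

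Null A was also compared with the wild types by itself. In a fit with null A, null B and wild type as 3 groups, 12 genes changed in null A against wild type, which is 0.0936%, with 8 higher (0.0624%) and 4 lower (0.0312%, limma). An unadjusted p under 0.05 was found for 1117 genes. The genes that fell were Hs3st2, Pax9, Tfap2b and Snapc1, at −2.32, −1.93, −1.68 and −0.85 on the log2 scale. Of the rises, those of Dlx1as, Nptx1, Osr2, Ccdc3 and Penk were 1.57, 1.45, 0.95, 0.94 and 0.66. The other 3 were Mir410, Dlk1 and Zim1, of imprinted loci, where Dlk1 and Zim1 are named because they complete the 12. Dlk1, a Notch-like transmembrane protein gene, was at 102 and 106 FPKM in null A, 80.4 and 80.3 in null B and 75.9 and 73.5 in wild type. Null A was highest and null B lay just above the wild types, at log2 changes of 0.47 (limma, adjusted p = 0.0393) and 0.10. Mir410, whose locus lies within exons of the noncoding gene Mirg and whose value therefore cannot be told from it, was at 9.86 and 10.7 in null A, 6.26 and 6.32 in null B and 5.64 and 6.15 in wild type. Zim1 was at 10.6 and 10.5, 9.45 and 9.20, and 6.79 and 7.02. The count of 12 rested on single libraries: it was 0 without null 2, 3 without null 1, 5 without wild type 1 and 19 without wild type 2.

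Null A and null B share the wild types, so their changes are set side by side. The log2 change was −2.32 and −2.06 for Hs3st2, −1.25 and −1.56 for Matn4, 1.89 and 1.79 for Stfa1 and 0.95 and 0.98 for Osr2, in null A and null B. Pax9 was the 1 gene of the 26 with an unadjusted p under 0.05 (limma) for the difference between the 2 pairs, as had 4015 of the 12814 tested genes. The 26 were called in a fit whose residual spread includes any difference between the pairs. Genes that differ between the pairs were thus less likely to be called, so this count does not measure how alike the pairs are.

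**Figure D3:**
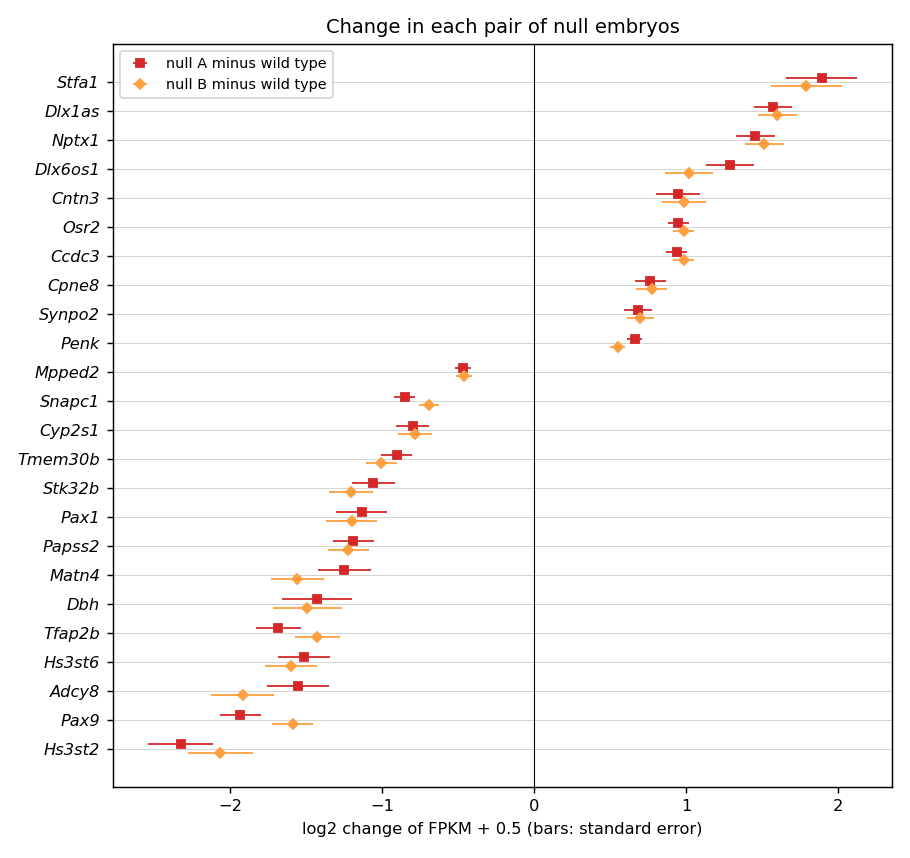
Log2 change of FPKM + 0.5 against the same 2 wild types in null A (red squares) and null B (orange diamonds), with standard errors, for the 24 called genes with an established symbol. The points range from close together, as 1.57 and 1.60 for Dlx1as, to further apart, as −1.55 and −1.92 for Adcy8.

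Null B differed from the wild types in far more genes, and the difference followed GC content. Against wild type, 2021 genes or 15.8% were called in null B, 775 higher (6.05%) and 1246 lower (9.72%, limma). When genes were ordered by transcript GC content in 10 bins of equal size, in the lowest bin the median change was 0.27 in null B and 0.03 in null A. In the highest bin it was −0.26 and −0.01. The called genes of null B were 382 higher and 2 lower in the lowest bin, and 2 higher and 436 lower in the highest. With the GC trend removed from each library, 33 genes or 0.258% were called in null B, 16 higher and 17 lower. The same removal left 29 genes or 0.226% called in all nulls against wild type, among them 19 of the 26. Of the 7 calls lost on that removal, 6 were those of Pax1, Dbh, Cyp2s1, Cntn3, Cpne8 and Dlx6os1, the last with the highest adjusted p of 0.214 (limma). Over all tested genes, null B had a median absolute log2 change of 0.061 against the 2 heterozygotes and 0.159 against the wild types. What underlies the GC trend was not tested, nor was its part in the heterozygote values. Directly compared, null B and null A differed in 0 genes (limma, smallest adjusted p = 0.0592), with 4015 at an unadjusted p under 0.05 and 1094 called when only genes with a mean FPKM of 5 or more were tested. Single libraries moved the null B count too, to 1 without null 3 or null 4, 21 without wild type 2 and 104 without wild type 1.

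**Figure D4:**
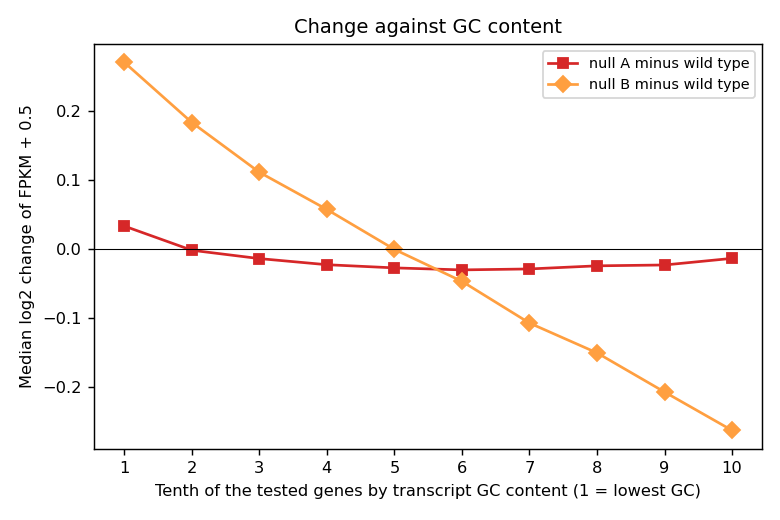
Median log2 change of FPKM + 0.5 against wild type in each of 10 equal bins of the 12814 tested genes, ordered by transcript GC content, for null A (red) and null B (orange). Null B falls from 0.27 to −0.26 across the bins, while null A stays between 0.03 and −0.03.

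The nulls and controls could also be split so that no library was shared. In that split, null A against wild type was fitted on 4 libraries, and null B against the 2 heterozygotes on the other 4. The first gave 8 calls or 0.0624%, namely Ccdc3, Hs3st2, Ngp, Osr2, Pax9, Penk, S100a8 and S100a9 (limma). All 8 had the same sign in null B against heterozygote, but 3 of them were imprecise there. Ngp, S100a8 and S100a9 were at 1.05 (SE 0.54), 0.96 (SE 0.48) and 0.85 (SE 0.64) in the second, against 2.27, 2.35 and 2.51 in the first. For Hs3st2 the changes were −2.32 and −1.80, for Osr2 0.95 and 0.56 and for Ccdc3 0.94 and 0.97. Of the 100 genes with the lowest p in the first comparison, 98 had the same sign in the second, where 73.2% of all tested genes did. The median absolute change of the 100 was 0.93 in the first, and in the second their median change in that direction was 0.55. Null B against heterozygote itself gave 3 calls or 0.0234%: Pax9 and Tfap2b fell and Dlx1as rose. Both comparisons hold the same mutation and differ in the control genotype.

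The heterozygote mean was between the null and wild-type means in 25 of the 26 called genes. This count takes in means near the wild type, such as that of Ccdc3 at 6.25 FPKM beside 6.17 in wild type. The share of all tested genes with such a mean was not computed. For 14 of the 26, both heterozygote values lay between the null and the wild-type values with no overlap, as they did in 197 genes, which is 7.34% of the 2683 genes whose null and wild-type values did not overlap and 1.54% of all tested genes. Because the 26 were selected for a gap between null and wild type, these counts are a description. Over all tested genes the heterozygotes were also nearer to null B than the wild types were, at median absolute log2 changes of 0.061 and 0.159. The part of the GC trend in the heterozygote positions was not tested. Hs3st6 was at 2.54 and 1.68 FPKM in the heterozygotes, between 0.944 in the mean of the nulls and 3.74 in that of the wild types. Osr2 was at 113 and 107, between 160.2 and 81.9, and Stk32b at 3.05 and 3.02, between 1.96 and 4.91. Other genes stood at the wild-type level in the heterozygotes, such as Mpped2 at 35.8 in both, Ccdc3 at 6.59 and 5.90, and Tfap2b at 13.7 and 13.8 FPKM. Pax9 itself was at 30.1 and 26.2.

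Several genes of neutrophil granules and stefins were high in 3 of the 4 nulls. The 8 genes, chosen after their values were seen, were S100a8, S100a9, Ngp, Ltf, Camp, Stfa1, Stfa2l1 and Stfa3. Other neutrophil genes that were looked up, Elane, Mpo, Lcn2, Cd177 and Retnlg, are not among the 8. Of these, Elane and Cd177 were not among the tested genes. S100a8 and S100a9 encode the subunits of calprotectin, and Ngp, Ltf and Camp encode granule proteins of maturing neutrophils. S100a9 was at 12.4, 12.9, 12.96 and 3.04 FPKM in nulls 1 to 4, 1.92 and 1.71 in wild type, and 2.22 and 4.88 in heterozygote libraries. Nulls 1 to 3 were alike and high, and null 4 lay between the 2 heterozygotes. Ngp was at 3.11, 3.58, 3.54 and 0.730, against 0.358 and 0.237 in the wild types, and Stfa1 at 2.55, 2.78, 3.17 and 1.87, against 0.469 and 0.251. In all 8 genes nulls 1 to 3 were above every wild-type and heterozygote value, and null 4 was the lowest null. The 8 were chosen on these values, so this pattern and the calls below are a description. Ngp, Stfa1 and Camp, the last at 0.181 and 0.131 FPKM in the wild types, passed the expression filter through null libraries alone. A gene that low in wild type could enter only if it was higher in null. Null 4 was within or below the heterozygote range in 7 of the 8. Over all 4 nulls, Stfa1 was the called gene (log2 change 1.84, SE 0.19, limma, adjusted p = 0.0163), while S100a9 had a log2 change of 2.04 and an adjusted p of 0.321. All 8 were called without null 4, where S100a9 had a log2 change of 2.52 (limma, adjusted p = 8e-05), although that library was left out with these values known. Stefin genes lie in a cluster of close copies, so reads may be split among them. Null 4 and the second heterozygote, which had S100a9 at 4.88 FPKM, are the libraries with the female pattern. That heterozygote had Xist at 109.7 FPKM and Ddx3y at 0. The part of sex in these values was not tested.

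**Figure D5:**
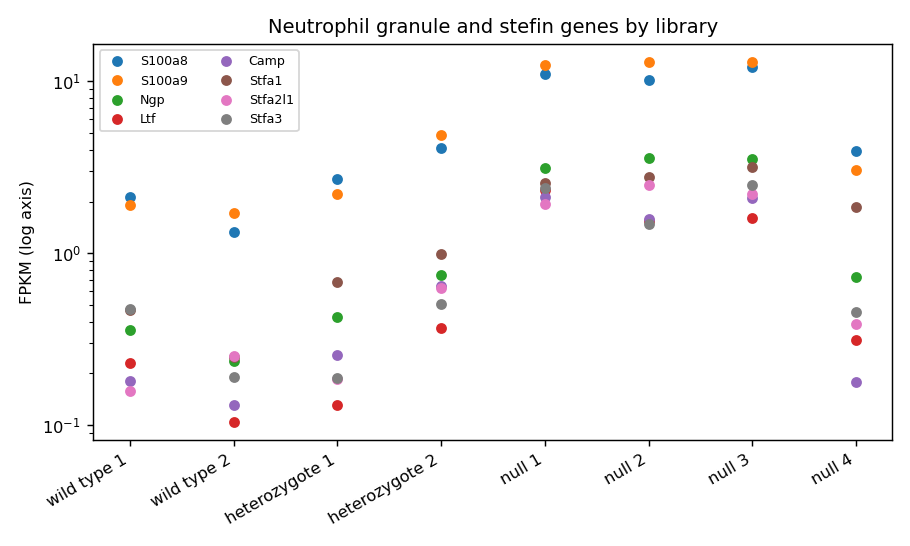
FPKM on a log axis of the 8 neutrophil granule and stefin genes in each of the 8 libraries, 1 point per gene and library. Nulls 1 to 3 lie above all wild types and heterozygotes, for example 12.4 to 12.96 for S100a9, while null 4 is at 3.04 for that gene.

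Skeletal muscle RNA varied between embryos of the same genotype. Summed FPKM of the muscle markers was 489, 509, 212 and 122 in nulls 1 to 4 and 159.7 and 335 in the wild types. Null 1 and null 2 were above both wild types, null 3 between them and null 4 below. All 22 tested markers had a positive change in null with 0 calls, and the list median was 0.99 in null A and −0.38 in null B. Over all tested genes 55.6% were below 0 and 0.203% were called. Myog, a muscle-determining factor, was at 45.7, 46.5, 19.1 and 12.9 FPKM in the nulls and 15.6 and 32.7 in the wild types. The part of muscle in the calls of null A, Dlk1 among them, was not tested.

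Imprinted genes were mostly higher in point estimate, without a call over all nulls. Of 25 tested, 20 were above 0, 7 of them at an unadjusted p under 0.05, and the list median was 0.18 (0.23 in null A and 0.08 in null B). Of all tested genes 55.6% were below 0, 0.203% were called and 9.12% had an unadjusted p under 0.05 in either direction. Magel2, of the Prader-Willi region, was at 10.5, 8.69, 7.86 and 9.22 FPKM in the nulls and 5.25 and 4.73 in the wild types. Its nulls were all higher than the wild types (limma, adjusted p = 0.0573), and it was called with the GC trend removed (adjusted p = 0.0145) and with all 8 libraries in the fit (adjusted p = 0.0302). The noncoding gene Rian was at 26.9, 25.5, 25.96 and 27.7 against 21.0 and 20.5, also without overlap (limma, adjusted p = 0.130).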

How the data were processed

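Per the submitters' processing notes, Novoalign 2.08.03 was the aligner, mm10 the build, and DESeq2 (version not stated) a tool of unstated role. The counter, the annotation and any filters were not given in the sources used here. Values deposited by the authors were FPKM per Ensembl gene in 1 table of 8 libraries, 0 of its columns belonging to other samples. Per the labels, libraries were made with a TruSeq RNA kit after oligo(dT) selection, which does not mark strand. Low FPKM values were whole multiples of 1 fragment for 98.2% of 4487 low genes, within 0.01 of a fragment, which gave the depths.

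Positions, exon overlaps and GC content came from GENCODE M21 on GRCm38, where 18752 of 19083 identifiers matched and 331 did not. Autosomal genes with FPKM of 1 or more in at least 2 of the 6 libraries entered limma 3.58.1 (R 4.3.3) on the log2(FPKM + 0.5) scale. Moderation used a trend with mean level, tests were two-sided, and Benjamini-Hochberg adjusted p under 0.05 was the threshold. Fold changes on this scale understate the change of low genes. Null against wild type was a fit with 2 groups of 6 libraries, null A and null B a fit with 3 groups. The procedure was tested on simulated data. Summaries and plots used Python 3.11.15, pandas 2.3.3, numpy 2.4.6 and matplotlib 3.10.9.

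Genes named are Pax9, the 14 largest rises and falls among called genes whose groups did not overlap (predicted genes only counted, short directions filled by lowest p), called, most changed and most abundant list members, and the largest changes of null A. Others, such as the neutrophil genes, Dlk1, Zim1, Hs3st1 and Dlx2, were named after their values were seen. The members and lists were chosen with earlier results of these data known. Alternatives were pseudocounts, filters, all 8 libraries, median centring, GC removal, no variance trend, a replicate block and leaving out each library.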

Additional observations from a re-analysis of the deposited data

Results flagged for a closer look

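In the null group of 4, 1 embryo stood far from the other 3 in 8 of 126 genes examined, by the gap to its nearest neighbour as a share of the group's range, which chance gives in about 1 in 20 groups. The share was 0.947 for Hs3st2, where null 3 was high at 0.567 FPKM, 0.943 for S100a9 and 0.837 for Ngp, where null 4 was low, and 0.888 for Mir483, where null 1 was high at 7.29 FPKM. It was 0.953 for the complement gene C1qb, where null 2 was high at 14.3 FPKM, and 0.875 for the cyclase gene Adcy6, where null 1 was high at 32.1 FPKM. It was 0.844 for the cadherin gene Cdh11, where null 1 was low at 153.5 FPKM, and 0.863 for Cox5b, a subunit of cytochrome c oxidase, where null 4 was low at 35.6 FPKM.

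The pairs of null embryos moved opposite ways from the wild-type mean, with no overlap between the pairs, in 2 marker sums. Sums of neuron, macrophage and endothelium markers did so with overlap between the pairs. The log2 ratio of null A to null B was 1.58 for skeletal muscle and 0.197 for pericytes, whose summed FPKM was 164.5 and 168 in null A and 146 and 144 in null B. Des is a member of both lists, so the 2 sums are not separate measures. These differences were not tested.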

How the results depend on the processing

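The 26 genes called in null against wild type became 12 at a mean FPKM of 5 or more, 45 with all 8 libraries in the fit, 46 and 174 within title numbers 44 and 56 alone, 8 with null A and the wild types alone and 2368 with null B and the wild types alone. Leaving out 1 library gave 3 to 39. Other pseudocounts, no filter, all chromosomes, median centring, GC removal and no variance trend gave 23 to 29. For null A (12 genes), no filter gave 0, and leaving out 1 library 0 to 19. For null B (2021 genes), no filter gave 996, GC removal 33, leaving out a wild type or a null B library 1 to 104, and leaving out null 1 or null 2 gave 2363 and 2353. The 0 genes between null B and null A became 1094 at a mean FPKM of 5 or more and 0 to 2 without 1 library. The Pax9 change ran from −1.952 to −1.565 over the leave-outs, and the latter, without wild type 1, missed the threshold (limma, adjusted p = 0.0857). Of the values recomputed for single genes and list medians, 138 lost a call, 18 gained one, 206 moved further than the spread of replicates and 966 did none of these. No called gene changed sign, which for the leave-outs was fixed in advance by the lack of overlap between the groups. Values near 0 did change sign, such as Hs3st1 between −0.25 and 0.30. The causes were not tested.

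The numbers 44 and 56 in the sample titles are not said to mark litters. Deviations from group means of libraries with the same number had correlations over genes of 0.25 (null A and wild type), −0.10 (null B and wild type) and 0.07 (null A and null B), so the numbers were not taken to pair embryos. With title number as a replicate block, 14 genes were called in null against wild type, 13 of them among the 26, 8 in null A, 2659 in null B and 781 between null B and null A, and Pax9 remained called (limma, adjusted p = 0.0318). Null A and the wild types alone with the replicate block, chosen after seeing the data, gave 36.

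With 2 wild types, each leave-out of a control left 1 library, assumed to vary like the nulls. Among the called falls, depth limited Dbh most, at 5 to 41 fragments in null libraries, and Hs3st2, Hs3st6 and Pax1 also had under 90 in each. Rises such as Stfa1 were low in the wild types instead and are not covered by this ranking.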
